A study of Mus musculus with 24 samples.

Results

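Complement is a set of blood and tissue proteins that mark targets for removal by phagocytes, and 9 of its genes were followed here in the white fat of mice. These 9 genes were C1qa, C1qb and C1qc, C1s1, C2, C4b, C3, Cfb and C3ar1, taken by name from the 56895 gene entries used. RNA-seq had been made from retroperitoneal adipose tissue, the fat pad on the rear wall of the abdomen, in 24 C57BL/6J offspring. All mice of the study descended from mothers that ate the AIN-93G diet for 8 weeks, with vitamin D3 at 1.0 IU/g (CTRL) or 0.0 IU/g (VDD, vitamin D deficient), in groups of 15 mothers. By the paper's discussion, the diet without vitamin D lasted at least 8 weeks before mating and also covered pregnancy. After birth every mother received the control diet until weaning. From 6 weeks of age the offspring ate a low-fat diet (LF, AIN-93M) or a high-fat diet with 45% of energy from fat (HF) for 8 weeks, so that the vitamin D difference was in the mothers' diet only. Males and females of each maternal and offspring diet gave 8 groups of 3 mice, with 1 library per mouse. No transgene or deleted gene was involved, the mice were fasted overnight, and the sources used here do not say which mice were littermates.

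Complement can be started by several routes. In the classical route the C1q protein, built from the chains of C1qa, C1qb and C1qc, binds its target and activates the proteases C1r and C1s, which cut C4 and C2 into an enzyme that cleaves C3. In the alternative route factor B, the product of Cfb, is cut by factor D, known in fat as adipsin (Cfd), and forms another C3-cleaving enzyme. Cleaved C3 tags surfaces and releases the fragment C3a, whose receptor is the product of C3ar1. In adipose tissue C1q is known as a product of macrophages, whereas C1s, C3 and C4 are also made by fibroblast-like cells, and C3 and adipsin by fat cells.

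The 9 genes lie on 3 chromosomes of the mm10 (GRCm38) mouse genome, all on the minus strand. C1qb, C1qc and C1qa stand side by side within 18675 bases of chromosome 4, from 136880129 to 136898803. C1s1 (124530345 to 124542359) and C3ar1 (122847138 to 122856161) are on chromosome 6. On chromosome 17, C4b spans 34728380 to 34743882, Cfb spans 34856374 to 34862518 and C2 begins 86 bases farther on, spanning 34862604 to 34898265, while C3 lies apart at 57203970 to 57228136. The RefSeq promoter table for GRCm38.p6 held 5 of the 9 genes. The 150 bases before the start of transcription are shown for C1qb and C1qc, neighbours whose reads moved together in every library, and for C3, whose reads followed another order. The motifs searched on both strands of the 250 bases before the start were TTGCNNAA (C/EBP-type), TTCNNNGAA (STAT-type), an NF-kB-type and an interferon-response-type motif, and GAGGAA (PU.1-type). The GC box, spelled GGGCGG, was searched in the same way. So was the TATA box in the form TATAAA. Capitals mark the matches.
C1qb, minus strand of chr4:136886201-136886350: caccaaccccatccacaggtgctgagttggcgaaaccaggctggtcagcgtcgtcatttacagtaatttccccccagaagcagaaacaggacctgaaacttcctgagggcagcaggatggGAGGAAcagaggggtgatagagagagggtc
C1qc, minus strand of chr4:136892915-136893064: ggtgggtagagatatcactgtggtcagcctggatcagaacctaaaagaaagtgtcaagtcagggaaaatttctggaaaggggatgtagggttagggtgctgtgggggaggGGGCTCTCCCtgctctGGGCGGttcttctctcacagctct
C3, minus strand of chr17:57228137-57228286: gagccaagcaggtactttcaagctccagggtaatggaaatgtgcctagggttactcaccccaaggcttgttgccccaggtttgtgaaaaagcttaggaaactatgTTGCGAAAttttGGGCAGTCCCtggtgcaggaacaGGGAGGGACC
In C1qb the PU.1-type letters stand 30 to 25 bases before the start. In C1qc the NF-kB-type letters lie on the reverse strand 40 to 31 bases before the start, and the GC box 24 to 19 bases before it. That start is the one of RefSeq, whereas the GENCODE M21 gene model of C1qc reaches 136893065. The printed C1qc stretch thus lies inside that gene model. In C3 the C/EBP-type letters lie 45 to 38 bases before the start and are followed by 2 NF-kB-type matches, of which the one from 33 to 24 bases is on the reverse strand and the other ends at the last base. Farther out, NF-kB-type matches began at base -191 and, on the reverse strand, -190 of C1qb, which overlap, and at -197 of C3, and a PU.1-type match on the reverse strand began at -193 of C1qc. Over the same 250 bases of 32851 mouse promoters, 23.3% held GAGGAA, 17.6% the NF-kB-type motif, 32.7% GGGCGG, 9.6% TTGCNNAA, 12.4% TATAAA, 7.0% TTCNNNGAA and 3.0% the interferon-response-type motif, so a match is a description of letters only.

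Reads that fit more than 1 place had been left out by the authors, which touches C1s1 and C4b. Of the 50-base words in the transcripts of C4b, 34.6% also occur in its paralog C4a, and of those of C1s1, 21.8% occur in C1s2. For C2 and Cfb the limit is another one, since the gene entry Gm20547 lies at the same place and covers 79.5% of the exon bases of Cfb and 42.8% of those of C2 on the same strand, and it was listed with 0 reads in all 24 libraries. The sources used here do not say how reads in such shared exons were assigned, so levels of C2 and Cfb were not set against other genes, while comparisons of one gene between mice stand. C1qa, C1qb, C1qc, C3 and C3ar1 shared no 50-base word with another gene.

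The libraries held 13346779 to 18484346 reads on genes, and the fat cell genes Adipoq (44740 to 109716 normalized reads) and Plin1 (9362 to 30585) were high in all 24. Genes of other tissues were uneven. Acta1 of skeletal muscle ran from 58.7 to 181274 normalized reads, the highest in VDD LF male 2310. Umod of kidney had 1937 in VDD LF female 2303 and at most 4.5 in the others, and the steroid-making gene Hsd3b1 reached 18350 in CTRL HF female 2292. In 6 libraries, none of them from HF females, the mouse number is preceded in the tables by "renal", which the labels leave unexplained. In bulk tissue, fewer cells of a type and less RNA per cell cannot be told apart.

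All 9 genes were detected in all 24 libraries, each with at least 17.6 normalized reads. Per kilobase of exon, C3 had the highest median of the 7 genes that can be ranked, 5452 normalized reads per kb. It was followed by C1qa with 1691, C1qb with 1574, C1s1 with 1223, C1qc with 847, C4b with 646 and C3ar1 with 59.7 normalized reads per kb. The values of C1s1 and C4b rest only on reads that fitted 1 place but are divided by all exon bases. They may be too low, so the place of these genes in the order is not sure. On the same per-length scale adipsin (Cfd) had a median of 172457, so the protease that cuts factor B stood above each of these 7 genes. Serping1, the inhibitor of C1r and C1s, had 1464, Cfp (properdin) 416, C1ra (C1r) 379, C5ar1 (a receptor of C5a) 89.5, Itgam (a chain of a receptor for cleaved C3) 23.1 and Vsig4 (a complement receptor of macrophages) 9.5 normalized reads per kb. Between the lowest and the highest library, C1qc differed 5.27-fold, C2 4.35-fold, C3 10.81-fold, C4b 11.73-fold and Cfb 19.65-fold.

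**Figure D1:**
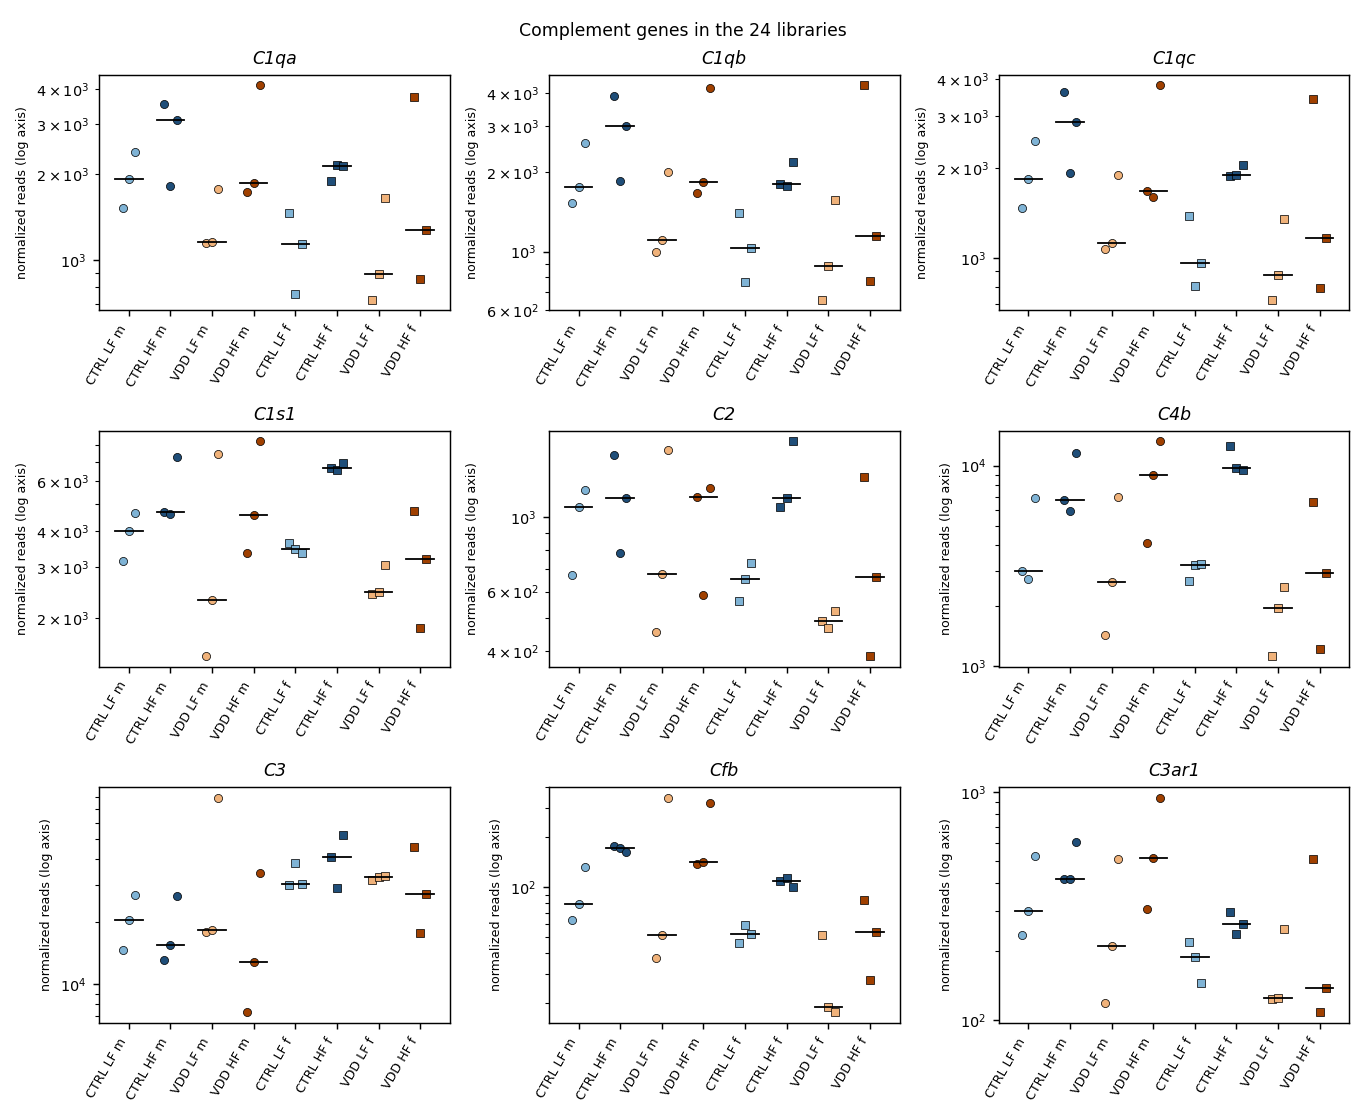
Normalized reads (log axis) of the 9 genes in each of the 24 libraries, by group, with circles for males (m), squares for females (f) and a bar at the group median. C4b in CTRL HF females (9501 to 12588) lies wholly above CTRL LF females (2668 to 3231), and C3 in VDD LF male 2310 (79216) lies above every other library.

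The 3 C1q genes gave nearly the same number of reads as each other in each mouse. The reads of C1qb over those of C1qa ran only from 0.819 to 1.143 (median 0.964, 24 libraries) and those of C1qc over C1qa from 0.818 to 1.07 (median 0.956), while C1qa itself varied 5.69-fold. C1qa had 1525, 1929 and 2396 normalized reads in CTRL LF males, 3542, 1816 and 3098 in CTRL HF males, 1144, 1160 and 1776 in VDD LF males, and 1740, 1865 and 4120 in VDD HF males. In females it had 1462, 757 and 1135 in CTRL LF, 1893, 2163 and 2134 in CTRL HF, 724, 893 and 1652 in VDD LF, and 3746, 855 and 1270 in VDD HF. The highest 2 values, 4120 and 3746, were single mice, VDD HF male 2308 and VDD HF female 2081, each well above the other 2 of its group. By group median the lowest was VDD LF females and the highest CTRL HF males, 3.47-fold apart, and no group was wholly above its lower neighbour in this order.

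C4b, the C4 gene of the classical route, had 2977, 2725 and 6863 normalized reads in CTRL LF males, 6707, 5922 and 11515 in CTRL HF males, 1437, 2640 and 6940 in VDD LF males, and 4130, 8968 and 13197 in VDD HF males. In females the values were 2668, 3178 and 3231 in CTRL LF, 12588, 9699 and 9501 in CTRL HF, 1125, 1943 and 2469 in VDD LF, and 6603, 1213 and 2912 in VDD HF. CTRL HF females thus held 3 high values close together, whereas HF females of VDD mothers spread from 1213 to 6603, all below them. C4a, the paralog, had only 3.8 to 20.6 normalized reads.

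C3, the central component, followed another order. It had 14677, 20341 and 26818 normalized reads in CTRL LF males, 13078, 15431 and 26513 in CTRL HF males, 17918, 18309 and 79216 in VDD LF males, and 7328, 12790 and 34229 in VDD HF males. Females had 29980, 38535 and 30405 in CTRL LF, 40880, 28983 and 52059 in CTRL HF, 31777, 32736 and 33379 in VDD LF, and 45984, 17577 and 27101 in VDD HF. The 4 male groups had the 4 lowest medians and the 4 female groups the 4 highest, but no group was wholly above its neighbour in that order.

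Cfb had 63.0, 78.6 and 131 normalized reads in CTRL LF males, 176, 172 and 162 in CTRL HF males, 37.2, 51.5 and 345 in VDD LF males, and 137, 141 and 320 in VDD HF males. In females it had 45.7, 58.7 and 52.4 in CTRL LF, 108, 113 and 99.4 in CTRL HF, 51.4, 18.8 and 17.6 in VDD LF, and 83.5, 27.5 and 53.5 in VDD HF. Its highest value, like that of C3, was in VDD LF male 2310, the library with the most Acta1. That library also had the highest level of the stromal gene Dcn (42435) and the mesothelium gene Muc16 (1647). It had the lowest level of the fat cell gene Plin1 (9362). Among VDD LF females the highest Cfb value, 51.4, was in VDD LF female 2303, the library with 1937 normalized reads of Umod of kidney. The part of these tissues was not tested. The group medians of Cfb differed 9.17-fold, the widest of the 9 genes. C3ar1, the C3a receptor, had 236, 299 and 525 normalized reads in CTRL LF males, 416, 416 and 603 in CTRL HF males, 118, 211 and 507 in VDD LF males, and 307, 515 and 945 in VDD HF males. Its female values ran from 108 to 509, and its lowest group median was that of VDD LF females. For all 9 genes, 3 of 63 pairs of groups next to each other by median did not overlap, 1 each for C2, C4b and Cfb.

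The HF diet was set against the LF diet in the offspring of CTRL mothers, females first. C4b was 3.43-fold higher in CTRL HF than in CTRL LF females (10596 ± 1728 against 3025 ± 311 normalized reads, mean ± SD, n = 3). The protease C1s1 was 1.88-fold higher (6658, 6517 and 6899 against 3652, 3486 and 3369), C2 1.94-fold (1075, 1143 and 1682 against 563, 655 and 732) and Cfb 2.0-fold, and the C1q genes were 1.82-fold to 1.88-fold higher. None of these ranges overlapped. C3ar1 was 1.43-fold higher, with 296, 238 and 263 against 220, 189 and 145, and C3, whose ranges overlapped, was 1.19-fold higher. A gene was called at an adjusted p under 0.01 over all genes tested with a fold change above 1.5 or below 0.66, the thresholds of the study. By limma, 0 of 16563 genes (0%) and 0 of the 9 were called, although 4762 genes had an unadjusted p under 0.05, and limma-voom also called none. The paper tested with DESeq2 and listed changed genes in each of its comparisons at these thresholds. The 0% here and below therefore belongs to the limma tests. Of the 9 genes, 8 had an unadjusted p under 0.05 and were higher, as were 14.4% of all genes tested, and the same 8 did not overlap between groups, as did 18.4% of genes in the higher direction. The lowest limma adjusted p-values were 0.0129 for C4b (log2 fold change 1.78, SE 0.16), 0.0176 for C1s1 (0.91, SE 0.11), 0.0322 for Cfb (1.00, SE 0.19) and 0.034 for C2 (0.95, SE 0.19). They were 0.0382 for C1qc, 0.0518 for C1qa, 0.0524 for C1qb, 0.121 for C3ar1 and 0.619 for C3. The median log2 fold change of the 9 genes was 0.91, beside 0.012 for all genes.

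Markers of other cells moved in the same comparison. All 7 stromal progenitor and fibroblast genes were higher in CTRL HF females with an unadjusted p under 0.05 (summed level 40254 to 48384 normalized reads against 21559 to 29761), and 9 of 10 macrophage genes were higher, 5 of them with an unadjusted p under 0.05 (13106 to 15980 against 6399 to 8925). All 7 mesothelium genes were higher too, 5 of them with an unadjusted p under 0.05 (7852 to 15560 against 4385 to 5459). Of 7 fat cell genes 5 were lower, 3 of them with an unadjusted p under 0.05 (median -0.55, summed level 379233 to 483651 against 553314 to 583700). The 3 genes tested of the adrenal list, Cyp11a1, Star and Hsd3b1, had a median of 1.57, none with such a p. Cyp11b1 and Cyp21a1 of that list had at most 11.9 and 30.6 normalized reads in any library. No gene of the macrophage, stromal, mesothelium and fat cell lists was at 0, and the part of these cells in the complement values was not tested.

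In the other HF comparisons the 9 genes were mostly higher under HF but varied more between mice. In CTRL males 8 of 9 were higher, with a median log2 fold change of 0.49 beside -0.022 for all genes, and C3 had -0.20. Cfb, 1.94-fold higher with no overlap, and C4b, 2.0-fold higher, had an unadjusted p under 0.05, a result that 10% of genes gave in that direction, and 1 of 9 did not overlap, as did 13.3% of genes. None of the 9 was called by limma (adjusted p of 0.125 for Cfb and 0.199 for C4b) while 9 of 15583 genes were (0.0578%). Among cell markers in CTRL males, 6 of 7 stromal and fibroblast genes were higher under HF, 3 with an unadjusted p under 0.05. Macrophage genes were mixed, with 6 of 10 higher, 2 of them with such a p, and 4 lower. All 5 endothelial genes were higher, 2 with such a p. All 5 B lymphocyte genes were lower there, 3 with such a p, as were 4 of 5 T lymphocyte genes, 3 with such a p. The part of these cells was not tested. In VDD males 8 of 9 were again higher, with a median of 0.83 beside 0.011 for all genes, led by C4b (1.40, SE 0.66) and C3ar1 (1.18, SE 0.62). There C3 had a log2 fold change of -1.01 (SE 0.78). No member was called in VDD males or had an unadjusted p under 0.05 (lowest limma adjusted p 0.215), where 12 genes were called (0.0752%) and 13.7% of genes had such a p and were higher. All 9 overlapped, while 16.9% of genes did not and were higher. Among macrophage genes in VDD males 7 of 10 were higher, 2 with an unadjusted p under 0.05, and 1 was lower with such a p. Stromal and fibroblast genes were higher in 6 of 7, 2 with such a p, and the part of these cells was not tested. Without VDD LF male 2310 the values of Cfb, C4b and C3ar1 in VDD males were 2.04, 2.01 and 1.74, and without VDD LF male 2078 they were 0.46, 0.88 and 0.70, with none called. C3 had -0.30 without VDD LF male 2310 and -1.61 without VDD HF male 2308. In VDD females the median was 0.63 beside -0.007 for all genes, with 0 called (0%), 0 with an unadjusted p under 0.05 (2.51% of genes, higher) and 0 without overlap (5.46%), the lowest limma adjusted p of the 9 being 0.837. In that comparison 804 genes had an unadjusted p under 0.05. One mouse carried the median, which was 0.01 without VDD HF female 2081, where C1qa had 0.02, C1qb -0.04 and C4b 0.10.

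**Figure D2:**
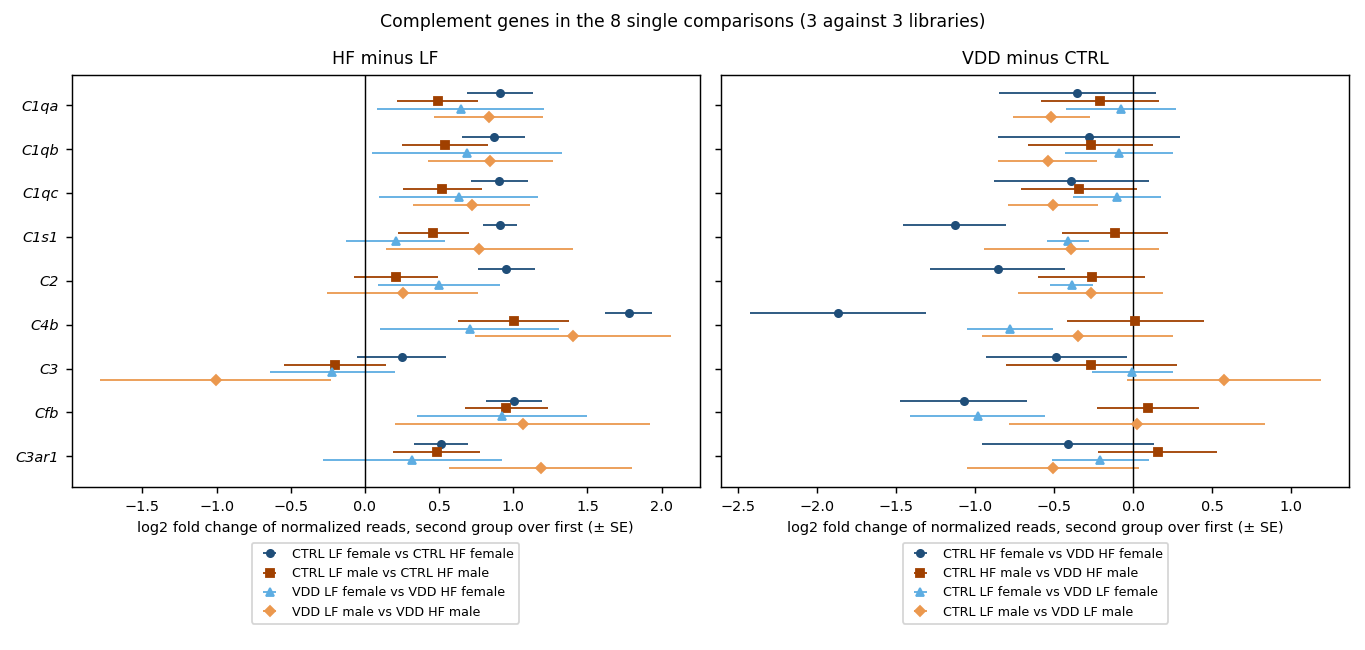
Log2 fold change of normalized reads, second group over first, with its SE, of each gene in the 4 comparisons of HF with LF (left) and the 4 of VDD with CTRL (right), 3 against 3 libraries each. C4b in CTRL females (1.78) is the value farthest right on the left side, and in HF females of VDD against CTRL mothers it has -1.87 on the right side, while C3 has values on both sides of 0 under HF.

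Averaged over maternal diet and sex in 1 fit of all 24 libraries, C4b rose under HF and was the only one of the 9 genes called. Its log2 fold change was 1.23 (SE 0.29, 2.35-fold, limma adjusted p 0.00347), and 9.44% of the 18399 genes tested were called. The other 7 genes with an unadjusted p under 0.05 were higher by 0.99 for Cfb (SE 0.30, adjusted p 0.0179), 0.74 for C1qb (SE 0.25, 0.0304), 0.73 for C1qa (SE 0.22, 0.0187), 0.70 for C1qc (SE 0.22, 0.0193), 0.63 for C3ar1 (SE 0.27, 0.0838), 0.60 for C1s1 (SE 0.21, 0.0431) and 0.49 for C2 (SE 0.21, 0.0934). These 8 of 9 stand beside 20.5% of all genes that had such a p and were higher. C3 had -0.29 (SE 0.27, adjusted p 0.459). The 4 HF comparisons do not share libraries with each other, and C4b and 7 other genes were higher on average under HF in each of them. C4b stayed called in all 24 fits that left out 1 library (1.08 to 1.38, adjusted p 0.000735 to 0.00815) and with the word renal as a term in the fit (C4b log2 fold change, 1.25), an alternative chosen after seeing the data. In males, C4b was higher under HF by 1.95 between the libraries named renal and by 0.54 among the others for CTRL, and by 1.76 and 1.22 for VDD. For CTRL males these values were 1.2 and 0.11 for C1s1, 1.35 and 0.07 for C3ar1, and 0.76 and -0.05 for C2. They were 1.02 and 0.24 for C1qa, 0.97 and 0.34 for C1qb, and 0.97 and 0.31 for C1qc. Cfb had 1.35 and 0.77 there, and C3 0.85 and -0.72. For VDD males C1s1 had 0.99 and 0.67, C3ar1 1.28 and 1.14, and C2 -0.21 and 0.49. These are values with no test, of 1 library against 1 for those named renal and 2 against 2 for the others. Without the 6 libraries named renal the limma value of C4b was 1.11 with an adjusted p of 0.0595. In the same average 7 of 10 macrophage genes and 5 of 7 stromal and fibroblast genes had an unadjusted p under 0.05 and were higher, with medians of 0.59 and 0.69, while 1 macrophage gene and 3 of 7 fat cell genes were lower with such a p. Their part in the C4b value was not tested.

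**Figure D3:**
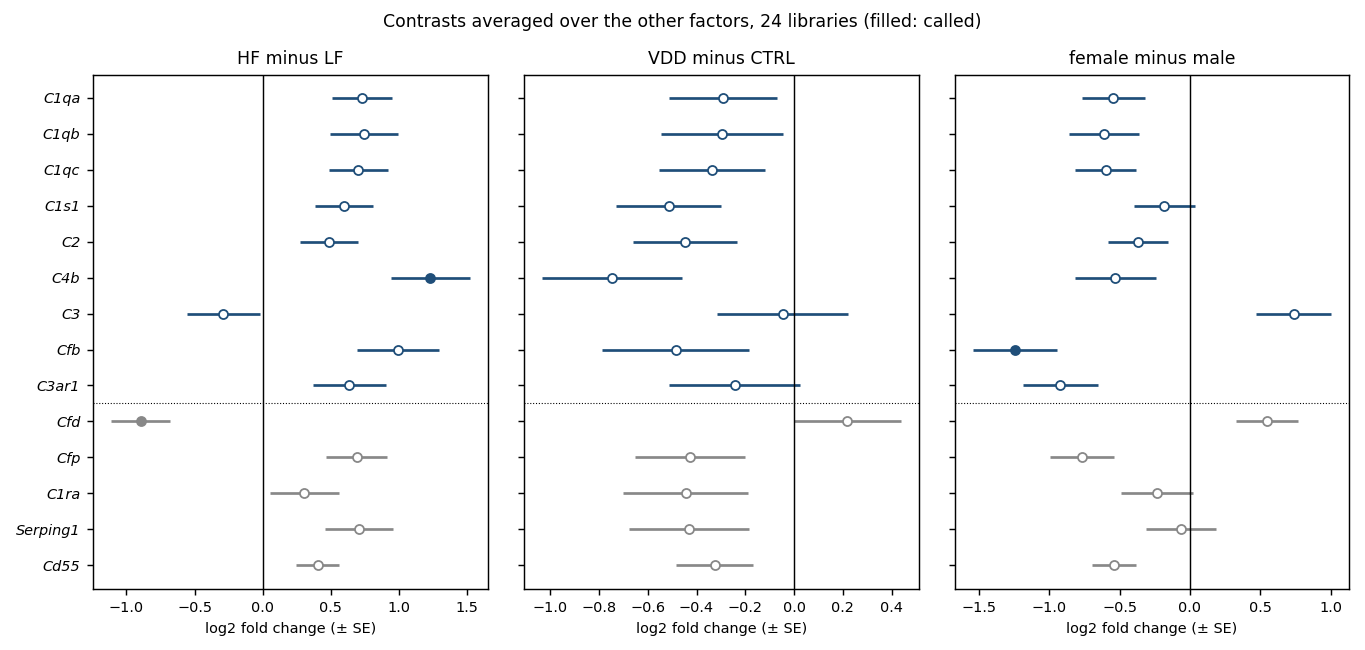
Log2 fold change with SE in the averages over all 24 libraries of HF minus LF, VDD minus CTRL and female minus male, for the 9 genes (blue, above the dotted line) and 5 other complement genes (grey). Filled points were called, which are C4b (1.23) and Cfd (-0.90) under HF and Cfb (-1.24) between the sexes.

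Maternal VDD was set against CTRL under each offspring diet. In HF females all 9 genes were lower in VDD, and C4b (-1.87, SE 0.56), C1s1 (-1.13, SE 0.33) and Cfb (-1.07, SE 0.40) did not overlap between groups. C4b had 6603, 1213 and 2912 normalized reads in VDD HF females against 12588, 9699 and 9501 in CTRL HF females, and C1s1 had 4715, 1838 and 3209 against 6658, 6517 and 6899. These 3 of 9 genes also had an unadjusted p under 0.05, beside 9.1% of genes that were lower with such a p and 12.2% that were lower with no overlap. None was called, nor was any of 16480 genes (0%), with limma adjusted p-values of 0.19 for C1s1, 0.201 for C4b and 0.255 for Cfb. By limma 2752 genes had an unadjusted p under 0.05, and limma-voom called none. The median of the 9 genes was -0.48 beside 0.001 for all genes, and it was -1.09 without VDD HF female 2081 and -0.15 without VDD HF female 2083. VDD HF female 2081 had 1090 normalized reads of the macrophage gene Adgre1 against 186 and 255 in the other VDD HF females. Its 5 T lymphocyte genes summed to 861 against 143 and 132, the highest of the 24 libraries. The C1q genes, at -0.28 to -0.39, turned to small positive values without VDD HF female 2083 and reached -0.97 to -1.0 without VDD HF female 2081, so single mice decided their sign. All 7 stromal and fibroblast genes were lower in VDD HF females, 6 of them with an unadjusted p under 0.05 (12154 to 30068 against 40254 to 48384), as were 5 of 7 mesothelium genes, and their part was not tested.

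In LF females the same 3-of-9 count came from C4b (-0.78, SE 0.27), C1s1 (-0.41, SE 0.135) and C2 (-0.39, SE 0.13), lower in VDD with an unadjusted p under 0.05 (6.53% of genes) and with no overlap (9.49%). C2 had 489, 468 and 524 normalized reads against 563, 655 and 732. None was called (0% of 16046 genes, 1933 with an unadjusted p under 0.05, limma adjusted p of 0.391 to 0.395 for the 3). In the same comparison 6 of 7 stromal and fibroblast genes were lower, 3 of them with an unadjusted p under 0.05 (18616 to 23829 against 21559 to 29761), as were 2 mesothelium and 2 endothelial genes with such a p, and their part was not tested. In males no gene of the 9 had an unadjusted p under 0.05 or lacked overlap. The backgrounds were 3.67% and 6.82% of genes, lower, under LF, and 2.12% and 4.61% under HF, with 0% called in both (1048 and 850 genes with an unadjusted p under 0.05). In LF males the lowest value was that of C1qb (-0.54, SE 0.31), and C3 (0.58, SE 0.61) and Cfb (0.03, SE 0.81) carried the wide spread from VDD LF male 2310. In HF males the 9 values lay between -0.34 and 0.16. All 5 skeletal muscle genes were higher in VDD than in CTRL HF males, 4 with an unadjusted p under 0.05 (median 6.47). Under LF, 9 of 10 macrophage genes were lower in VDD males, 2 with such a p. The part of these cells was not tested.

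Averaged over offspring diet and sex, all 9 genes had a value below 0 for VDD minus CTRL. C4b (-0.75, SE 0.29, limma adjusted p 0.129), C1s1 (-0.51, SE 0.21, 0.16) and C2 (-0.45, SE 0.21, 0.217) had an unadjusted p under 0.05, as did 11.1% of genes in that direction, and none of the 9 was called while 19 genes were (0.103%). C3 had -0.05 (SE 0.27). All 7 stromal and fibroblast genes were lower in this average with an unadjusted p under 0.05 (median -0.61), and 2 of 10 macrophage genes were. Their part was not tested.

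Whether the HF difference itself depended on the maternal diet was asked with an interaction term in each sex. In females all 9 interaction values were negative, that is, the HF difference was smaller in VDD, led by C4b (-1.10, SE 0.69) and C1s1 (-0.73, SE 0.37), but none had an unadjusted p under 0.05 (limma adjusted p 0.691 and 0.645). In males 8 of 9 were positive, up to 0.69 for C3ar1 (SE 0.74), and C3 had -0.81 (SE 0.90). No gene was called in either (0% of 17430 and of 16925 genes, with 1352 and 654 genes at an unadjusted p under 0.05). The HF effect in females minus that in males ran from -0.41 for C3ar1 to 0.62 for C3, none of the 9 was called, and 5 of 18399 genes were (0.0272%). A difference of the HF response between maternal diets or sexes was thus not detectable for these genes with 3 mice a group.

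The sexes differed in Cfb, which was lower in females. Averaged over both diets its log2 fold change for female minus male was -1.24 (SE 0.30, 2.37-fold lower, limma adjusted p 0.00663), and 7.27% of all genes were called. C3ar1 had -0.92 (SE 0.27, adjusted p 0.0201), C1qb -0.61 (SE 0.25, 0.0934), C1qc -0.60 (SE 0.22, 0.0565) and C1qa -0.54 (SE 0.22, 0.0924). C3 was the one gene with a higher value in females, 0.74 (SE 0.27, 1.67-fold, adjusted p 0.0594). At an unadjusted p under 0.05, 5 of the 9 were lower in females beside 15.2% of genes, and 1 was higher beside 17.8%. The call of Cfb was lost in 14 of 24 fits with 1 library left out, with values of -1.0 to -1.4 and adjusted p up to 0.0146, and without the libraries named renal (-1.36, adjusted p 0.051), while its sign held throughout. Without VDD LF male 2310 the value of C3 was 0.91 and it was called (adjusted p 0.00709), and without VDD HF female 2081 C1qb, C1qc, C3ar1 and Cfb were called. All 10 macrophage genes were lower in females, 8 of them with an unadjusted p under 0.05 (median -0.75), and all 7 mesothelium genes were higher, 4 of them with such a p (median 1.10). The steroid-making genes Cyp11a1 and Hsd3b1, at most 57.2 and 50 normalized reads in males, reached 12775 and 18350 in CTRL HF female 2292. The part of these cells in the sex differences was not tested.

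Over the 24 libraries C3 correlated less with the other 8 genes than they did with each other, but this did not hold within groups. Among the 28 pairs without C3, Pearson's r on the log2 scale was 0.68 to 0.99, and among the 3 C1q genes it was 0.99 for each pair. For the 8 pairs with C3 it was 0.03 to 0.40. When each library was taken as its deviation from its group mean, the pairs with C3 gave 0.61 to 0.93 and the pairs without it 0.42 to 0.99. Without VDD LF male 2310 and VDD HF female 2081, whose mean log2 level of the 9 genes lay farthest from that of their group, the within-group values were 0.35 to 0.86 with C3 and 0.19 to 0.98 without it, so part of both rested on those mice. The points share library preparation and depth, and the correlations are a description.

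**Figure D4:**
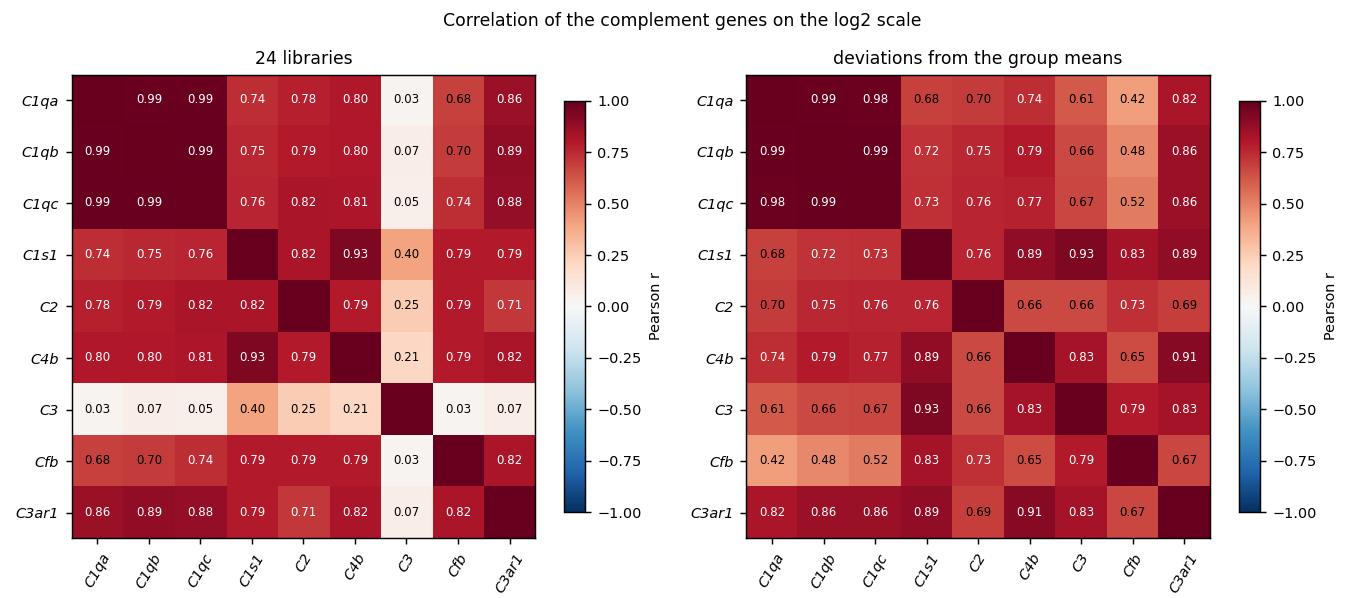
Pearson's r between the 9 genes on the log2 scale over 24 libraries (left) and over deviations from the 8 group means (right). The row of C3 holds 0.03 to 0.40 on the left and 0.61 to 0.93 on the right, while the other pairs hold 0.68 to 0.99 on the left and 0.42 to 0.99 on the right.

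Of 12359 other genes with a mean of at least 50 normalized reads, those most like the complement genes over the 24 libraries were named by the highest r. For the mean of the 3 C1q genes they were Cfp (0.966), the gene of properdin, which stabilises the C3-cleaving enzyme of the alternative route, Tyrobp (0.96), an adaptor of myeloid receptors, and Lyz2 (0.952), a lysozyme of macrophages and neutrophils. C1s1 was most like Serping1 (0.969), the inhibitor of C1r and C1s, and Efemp1 (0.961), an extracellular matrix protein. Cfb was most like Cd55 (0.911), a membrane protein that takes apart C3-cleaving enzymes, and Cd209a (0.894), a lectin. C3ar1 was most like the myeloid receptors Cd300ld (0.958) and Pirb (0.952). C4b was most like Rab7b (0.938) and Mfap5 (0.934), C2 most like Il16 (0.88) and Pdlim2 (0.866), and C3 most like Ifitm1 (0.862) and Ninl (0.861). Against cell type lists, C1qb had r of 0.94 with the mean of 10 macrophage genes, C3ar1 0.95, C1s1 0.96 with the 7 stromal and fibroblast genes, C4b 0.88 with the same, and C3 0.75 with the 7 mesothelium genes. With the 7 fat cell genes the 9 had r of -0.10 to -0.49. Cfb had 0.76 with the macrophage genes over all libraries and 0.56 within groups, and 0.68 and 0.76 with the stromal and fibroblast genes. With the 6 kidney genes, of which 2 passed the filter, Cfb had 0.2 over all libraries and 0.83 within groups. C3 had r of 0.07 with the macrophage genes over all libraries and 0.79 within groups. With the stromal and fibroblast genes C3 had 0.41 over all libraries and 0.91 within groups, above its 0.85 within groups with the mesothelium genes. Over all libraries C3 also had -0.74 with the endothelial genes and 0.62 with the kidney genes, so mesothelium was not its only partner.

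**Figure D5:**
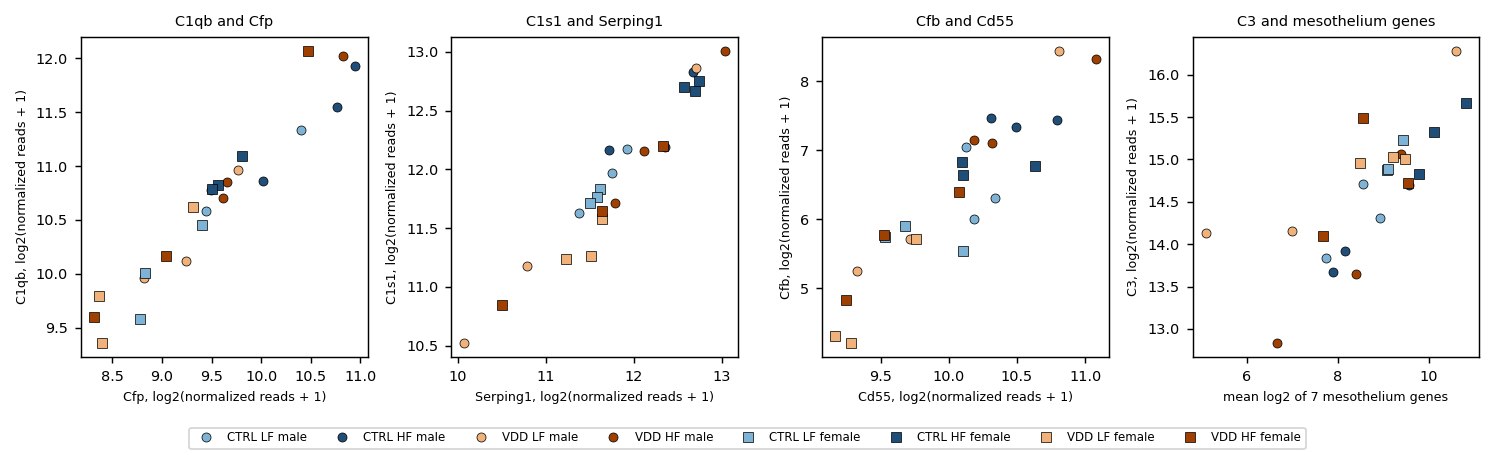
Log2(normalized reads + 1) of C1qb against Cfp, C1s1 against Serping1 and Cfb against Cd55, and of C3 against the mean log2 level of 7 mesothelium genes, 1 point per library. C1qb with Cfp and C1s1 with Serping1 follow narrow lines (r of 0.97 each). Cfb with Cd55 (0.91) and C3 with the mesothelium genes (0.75) are looser, with 0.82 and 0.85 over deviations from the group means.

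Of 48 other complement genes, 37 passed the filter on low values in the fit of all libraries. Under HF, 3 of the 37 were called higher and 1 lower, a share near the 9.44% of all genes. Itgax (2.04, SE 0.31) and Itgb2 (1.03, SE 0.26) form a receptor for cleaved C3, and Cd59a (0.65, SE 0.12) blocks the final pore of complement. Cfd fell by 0.90 (SE 0.22, limma adjusted p 0.00453), while Cfb, its substrate, had 0.99. Cfd had 35464, 49934 and 56181 normalized reads in VDD HF males against 171083, 221006 and 303168 in VDD LF males, groups that did not overlap, but in females of VDD mothers it went from 173169 to 222092 under LF to 161543 to 354603 under HF (log2 fold change 0.20, SE 0.90). The other 37 genes had a median of 0.40 under HF, and the 9 had 0.70, beside 0.014 for all genes. Between VDD and CTRL none of the 37 was called (0.103% of all genes), with 10 lower and 2 higher at an unadjusted p under 0.05 (11.1% of all genes, lower) and a median of -0.29. Between the sexes 9 of the 37 were called, beside 7.27% of all genes. The receptors C5ar1 (-1.09, SE 0.22), Itgam (-1.17, SE 0.30) and Itgb2 (-1.11, SE 0.26), the ficolin Fcna (-1.90, SE 0.37) and the pore component C7 (-1.56, SE 0.34) fell in females, and Masp1 (1.31, SE 0.15), Susd4 (1.91, SE 0.325), C8g (0.79, SE 0.20) and Cfi (2.40, SE 0.345) rose. Cfi had at most 20.5 normalized reads. Of the terminal genes, C8a, C8b and C9 had at most 4.1 normalized reads in any library, and Hc, the gene of C5, at most 24.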

How the data were processed

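Retroperitoneal fat of 24 mice was sequenced (TruSeq Stranded mRNA). The authors trimmed reads with Sickle, aligned unique reads to mm10 with STAR 2.7.0d, added transcripts with Cufflinks 2.2.1, counted with featureCounts 1.6.1, SAMtools 1.9 and MultiQC also being named, and deposited log2 of DESeq2-normalized reads plus 1 in 8 tables, 1 per comparison with 6 libraries each. Columns with the authors' own comparisons (fold changes and p-values) were not used. Undoing the log2 gave whole reads for 100% of 2730960 values (within 0.02 reads). Of 56899 entries, 4 with 2 duplicated names were left out.

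Single comparisons were fitted with limma 3.58.1 (trend, R 4.3.3) on the deposited log2 values, for genes that reached 10 normalized reads in 3 or more libraries. Interactions and averages used the recovered reads scaled together by the median of ratios, with a pseudocount of 1, as did all printed levels. The scalings differed by at most 0.023 in a log2 fold change of the 9 genes. P-values were Benjamini-Hochberg adjusted over all genes tested. No negative binomial test was run on the recovered reads, only limma-voom. Tests were checked on simulated data with 200 genes changed by 2 on the log2 scale. With no library left out, no value of the 9 genes printed here was that large. The shares called therefore do not hold for changes of the size seen in the 9 genes. In single comparisons 45.0% (VDD LF vs. VDD HF males) to 85.0% (CTRL LF vs. CTRL HF females) were called, 51.0% for VDD LF vs. VDD HF females and for CTRL LF vs. VDD LF males, 58.5% and 55.0% for the interactions in males and females, 84.5% for the HF effect between sexes, and 93.5% to 95.0% for averages. The genes named as most like a member had the highest r. Other complement genes came from a list, and those called and set partners of the members were named. The members and lists were chosen with earlier results of these data known. Gene models were GENCODE M21, promoters RefSeq GRCm38.p6. Alternatives were other scalings, limma-voom, a pseudocount of 10, no filter, an adjusted p under 0.05 with no fold threshold, leaving out libraries and 1 fit per sex. One gene of that list is not reported here.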

Additional observations from a re-analysis of the deposited data

How the results depend on the processing

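No call of the 9 genes in the 8 single comparisons or either interaction appeared under another scaling, limma-voom, a pseudocount of 10, 1 fit per sex or any library left out (0 to 0 genes). In CTRL LF vs. CTRL HF females, 5 genes passed an adjusted p under 0.05 with no fold threshold, and 1, C4b, was called with no filter (adjusted p 0.00427), where the set of genes tested and their shared variance differ. For HF minus LF, 6 genes passed at 0.05, 1 to 5 were called with 1 library left out (5 without VDD HF female 2083, 3 without VDD LF male 2310, 2 without VDD LF female 2303 or 2312), and 0 without the libraries named renal, a fit with 18 libraries in place of 24. For female minus male, 2 passed at 0.05, 0 to 4 were called with 1 library left out, and 0 without the libraries named renal. Of 33 values with an unadjusted p under 0.05, none changed sign in 712 refits. Of all 126 values of the 9 genes, 47 changed sign in at least 1 refit.

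The spread between mice was taken as a pooled SD of 0.59 of the mean log2 level of the 9 genes. The median of the 9 genes moved by more than this only without VDD HF female 2081. It went from -0.48 to -1.09 for VDD in HF females, from 0.63 to 0.01 for HF in VDD females and from -0.3 to -0.91 for the interaction in females. These moves passed the limit by little, and leaving out other mice moved medians by less. The cause of these moves was not tested. No paired analysis was possible because the columns carry mouse numbers and not the replicate numbers of the labels. The numbers of 3 mice a group and the unknown litters limit what these tests can show. The p-values set group differences against the spread between these mice only, with variances that limma shares in part over genes.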
